A study of Rattus norvegicus with 13 samples.

Results

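The genes described here carry the hypoxia response and glycolysis, and were taken as a named set of 38 genes: 7 regulators of the hypoxia-inducible factors (HIF), 18 glycolytic enzymes, 4 transporters of glucose and lactate, and 9 HIF target genes. All 38 were found by symbol among the 28357 gene rows of the day 3 files, and 36 of them were among the 14762 genes with enough counts to test. The samples were peripheral cornea with the adjoining limboscleral tissue of wild-type male Lewis rats aged 2 months, from a model of limbal stem cell deficiency, a state of lost epithelial stem cells with ingrowth of vessels into the cornea. The spironolactone group received spironolactone, a mineralocorticoid receptor antagonist, at 25 mg/kg/day by daily subcutaneous injection for 3 days, and was set against a vehicle group that received 90% olive oil with 10% DMSO (n = 3 libraries each at day 3). Of the 13 libraries in the series, the 7 from day 7 were not used here, because their gene identifiers could not be paired with gene symbols. Whether each library is a different animal is not stated in the labels, so the p-values reflect library-to-library spread, which may be technical.

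In cells with enough oxygen, prolyl hydroxylases (the Egln genes) mark the HIF alpha subunits (Hif1a, Epas1), the ubiquitin ligase subunit encoded by Vhl recognises the mark, and the protein is degraded. When oxygen is short the alpha subunits persist, pair with the partner encoded by Arnt, and switch on genes for glucose uptake, glycolysis and lactate export, among others. Much of this control acts on protein stability and is not read from the level of Hif1a transcript. The cornea has no vessels of its own in health, and its epithelium is known for storing glycogen and for making lactate from glucose.

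At day 3 the abundant enzymes of glycolysis and the glucose carrier Slc2a1 had higher mean counts with spironolactone, together with the hydroxylase Egln3 and the HIF target Ndrg1, while the hexokinase Hk2, the lactate carrier Slc16a1 and Hif1a had lower means. None of the 36 members passed edgeR's test over all genes at an adjusted p of 0.05, and neither did any other gene (0% of 14762). At an unadjusted p under 0.05, 14 members were higher (38.9%) and 3 lower (8.33%) with spironolactone, where the same held for 12.2% and 10.4% of all genes tested. In normalised counts (CPM, scaled to library size) all 3 spironolactone libraries lay above all 3 vehicle libraries in 12 members and below them in 3, which is 33.3% and 8.33% of the members against 16% and 16.1% of all genes. The deposited TPM scale corrects for transcript length and library size, but lacks the TMM factors between libraries that the CPM also used. On TPM, 6 members lay above and the same 3 below, against 9.86% and 23.1% of all genes, a comparison added after the values were seen. The 6 that stayed apart were Egln3, Gpi, Aldoa, Pkm, Bnip3l and Ndrg1, while Egln2, Pfkp, Pgam1, Eno1, Ldha and Slc2a1 overlapped on TPM. Below, groups are said to overlap or not by their CPM. DESeq2, run as an alternative, called 9 members higher (Egln3, Gpi, Aldoa, Eno1, Pkm, Ldha, Slc2a1, Bnip3l and Ndrg1) and 2 lower (Hk2 and Slc16a1), where it called 5.76% of all genes higher and 3.34% lower. Limma-voom called 0 members. The edgeR count rested on single libraries: without vehicle replicate 3 it called Egln3 alone among the members (5.27% of all genes), and without both replicates 3 it called Hif1a, Egln3, Hk2 and Ndrg1 (7.02% of all genes). The median log2 fold change, spironolactone minus vehicle, was 0.13 over the members and -0.01 over all genes.

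**Figure D1:**
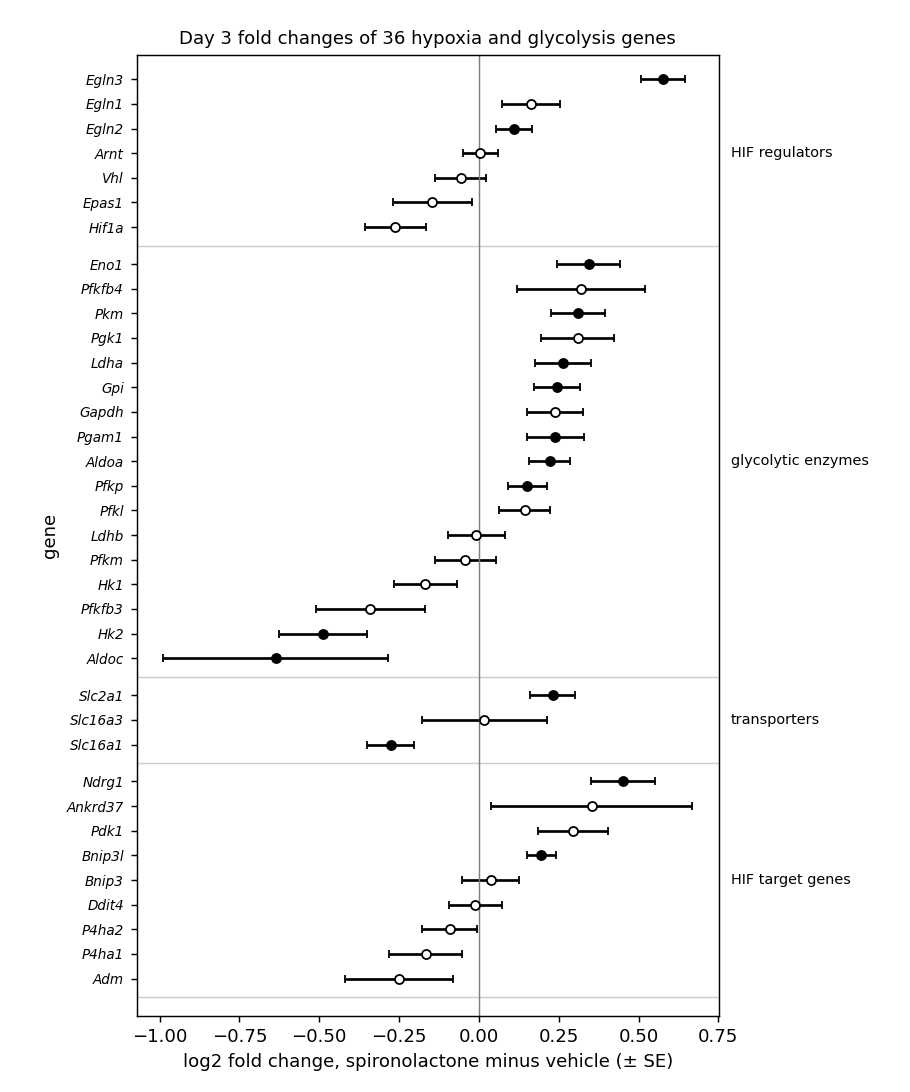
Log2 fold change of each tested gene (x axis, spironolactone minus vehicle, bars ± SE of the edgeR fit, n = 3 libraries per group), by role and in order of size. Filled points are genes whose spironolactone and vehicle libraries do not overlap: 12 lie to the right of 0, led by Egln3 at 0.58, and 3 to the left, Aldoc, Hk2 and Slc16a1.

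Libraries held 18.2 to 25.3 M estimated counts, and markers of several cell types differed between the groups. The 13 corneal and limbal epithelial markers were positive in 13 of 13 cases, with a median log2 fold change of 0.52. The groups did not overlap in 11 of them, while the corneal keratin Krt12 and Pax6 overlapped. Summed levels were 17744, 20052 and 20541 CPM in the spironolactone libraries, against 10658, 10143 and 14006 CPM in the vehicle libraries. The 12 skeletal muscle markers were lower in every spironolactone library, at sums of 190.3, 163 and 316 CPM against 556, 1324 and 1083 CPM with vehicle. The 9 retinal markers summed to 2743, 3483 and 194 CPM with spironolactone and to 4584, 4105 and 4198 CPM with vehicle, so that spironolactone replicate 3 stood apart, and lens markers summed to 466 CPM in vehicle replicate 3 and to between 10.6 and 42.4 CPM in the others. Neutrophil markers had lower means in 6 of 6 cases, at sums of 31.6, 19.8 and 21.1 CPM with spironolactone and 42.5, 40.8 and 33.1 CPM with vehicle, without overlap. Macrophage markers had lower means in 8 of 8, at sums of 1031, 758 and 829 CPM with spironolactone and 1187, 1089.7 and 862 CPM with vehicle, with overlap. Keratocyte markers overlapped, at sums of 16781, 15332 and 15281 CPM with spironolactone and 15453, 17473 and 15534 CPM with vehicle. No marker of these lists was at 0 in all libraries, and only the lens markers Mip and Lim2 were at 0 in any. The part of these differences in the results below was not tested. In bulk tissue, fewer cells of a type and less RNA per cell cannot be told apart.

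The promoters are shown because HIF binds the core letters ACGTG or GCGTG. The 6 printed below are examples and do not stand for all members that were higher or lower. RefSeq promoters of the rat build GRCr8 (300 bases around the gene start) were matched to 34 of the 38 genes. A core on either strand was found in 24 of these 34 genes (70.6%) and in 44.6% of the 27457 genes with a promoter in the table. By role it was found in 13 of 17 glycolytic enzymes, 6 of 7 HIF target genes, 2 of 3 transporters and 3 of 7 HIF regulators. The palindrome CACGTG, which holds the core ACGTG on both strands and is also the E-box letter sequence, was found in 6 of the 34 genes (17.6%) and in 7.08% of all genes. Among the 6 promoters printed here, Ldha (lactate dehydrogenase A, chr1:106507842-106508141, plus strand), Eno1 (enolase, the first of its listed starts, chr5:166002617-166002916, plus strand) and Slc2a1 (the glucose carrier, chr5:138002272-138002571, plus strand) belong to genes whose CPM was higher in every spironolactone library. Slc16a1 (the lactate carrier, chr2:194812410-194812709, plus strand) was lower in every spironolactone library, and so was Hk2 (hexokinase, chr4:116841226-116841525, minus strand), while Egln3 (the hydroxylase, chr6:77410966-77411265, minus strand) was higher. Each is written 5′ to 3′ in the direction of its gene, and capitals mark the cores on either strand (CACGT and CACGC are the cores read from the other strand).
Ldha: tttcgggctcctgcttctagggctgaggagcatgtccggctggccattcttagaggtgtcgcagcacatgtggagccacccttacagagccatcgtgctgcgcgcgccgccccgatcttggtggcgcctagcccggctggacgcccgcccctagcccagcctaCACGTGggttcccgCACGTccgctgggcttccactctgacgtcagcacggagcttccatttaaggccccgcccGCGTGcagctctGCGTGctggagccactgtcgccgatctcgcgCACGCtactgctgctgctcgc
Eno1: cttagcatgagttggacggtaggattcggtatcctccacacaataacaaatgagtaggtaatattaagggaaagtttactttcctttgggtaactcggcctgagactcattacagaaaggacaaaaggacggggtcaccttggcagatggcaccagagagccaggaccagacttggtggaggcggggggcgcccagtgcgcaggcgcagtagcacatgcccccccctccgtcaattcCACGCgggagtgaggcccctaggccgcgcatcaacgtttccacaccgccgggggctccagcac
Slc2a1: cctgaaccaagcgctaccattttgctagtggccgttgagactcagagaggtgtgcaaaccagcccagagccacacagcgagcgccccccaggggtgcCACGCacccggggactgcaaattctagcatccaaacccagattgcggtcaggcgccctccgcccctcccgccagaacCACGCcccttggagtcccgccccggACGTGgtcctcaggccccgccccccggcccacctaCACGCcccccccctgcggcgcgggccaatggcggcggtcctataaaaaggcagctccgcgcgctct
Slc16a1: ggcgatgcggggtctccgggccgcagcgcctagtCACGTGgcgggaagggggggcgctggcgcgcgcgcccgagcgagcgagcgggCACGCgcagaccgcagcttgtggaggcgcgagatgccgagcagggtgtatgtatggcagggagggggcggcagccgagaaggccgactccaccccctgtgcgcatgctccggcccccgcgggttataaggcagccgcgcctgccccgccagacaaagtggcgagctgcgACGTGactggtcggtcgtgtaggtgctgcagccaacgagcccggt
Egln3: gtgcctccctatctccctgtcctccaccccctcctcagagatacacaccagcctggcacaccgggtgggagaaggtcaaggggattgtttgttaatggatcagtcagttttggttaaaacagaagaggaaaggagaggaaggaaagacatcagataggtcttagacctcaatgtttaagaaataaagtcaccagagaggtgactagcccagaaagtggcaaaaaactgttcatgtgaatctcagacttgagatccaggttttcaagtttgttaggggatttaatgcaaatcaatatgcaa
Hk2: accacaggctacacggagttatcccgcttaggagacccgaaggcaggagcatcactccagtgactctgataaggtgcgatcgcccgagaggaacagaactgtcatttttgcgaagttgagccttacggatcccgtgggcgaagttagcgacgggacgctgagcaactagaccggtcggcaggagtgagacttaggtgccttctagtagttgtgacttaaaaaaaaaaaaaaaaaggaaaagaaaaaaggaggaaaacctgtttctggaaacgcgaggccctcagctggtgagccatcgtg
Ldha held 6 cores, Slc2a1 and Slc16a1 held 4 each, Eno1 held 1, and Egln3 and Hk2 held 0. A CACGTG palindrome entered these counts once for each strand, and Ldha and Slc16a1 held 1 such palindrome each, Slc2a1 0. Slc16a1, with lower values under spironolactone, equalled Slc2a1, with higher ones, in a count where 1 of the Slc16a1 sites entered on both strands. By type, ACGTG made up 3 of the matches in Slc16a1 and 1 in Slc2a1, and GCGTG 1 and 3. Egln3, the member with the smallest p, held none in this window. Members not printed varied in the same count. Of those with higher means, Pkm held 0, Gpi 1, and Aldoa 0 or 1 by start, while Gapdh held 3 and Pdk1 4. Aldoc and Hif1a, with lower means, held 3 each. A match describes the letters only, and the absence of one says nothing of HIF elsewhere in the gene.

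Among the HIF regulators, the hydroxylase gene Egln3, which is itself a known HIF target, had the largest fold change and Hif1a the lowest one. Egln3 had 152, 160.2 and 166 CPM in the spironolactone libraries, against 108, 98.6 and 114 CPM in the vehicle libraries. The groups did not overlap, and the lowest spironolactone library was well above the highest vehicle library. The means were 159 ± 6.97 and 107 ± 7.85 CPM (SD, n = 3 each), a 1.49-fold ratio (log2 fold change 0.58, SE 0.069, adjusted p = 0.0649), which missed the threshold. Leaving out vehicle replicate 3 brought it past the threshold (adjusted p = 0.0155), within a range over all alternatives of 1.02e-08 to 0.259.

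The other prolyl hydroxylases had smaller fold changes. Egln2 had 42.4, 43.7 and 44.3 CPM with spironolactone and 41.0, 41.4 and 38.5 CPM with vehicle, without overlap (log2 fold change 0.11, SE 0.056, adjusted p = 0.293). Egln1, the main oxygen sensor of most tissues, had 33.8, 35.5 and 41.8 CPM with spironolactone and 34.8, 32.4 and 32.0 CPM with vehicle, where spironolactone replicate 1 fell inside the vehicle range (log2 fold change 0.16, adjusted p = 0.324). Per length, Egln3 made up 37.9% ± 1.10 of the summed TPM of the 3 hydroxylase genes with spironolactone, against 31.1% ± 2.05 with vehicle (SD, n = 3 each). All 3 spironolactone libraries lay above the vehicle libraries in this share, with p = 0.1 by a two-sided exact permutation test (the lowest value reachable with 3 libraries per group, 0.175 adjusted over 7 shares).

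Hif1a, the alpha subunit found in most cells, had 456, 474 and 405 CPM in the spironolactone libraries, against 572, 559 and 469 CPM in the vehicle libraries. Spironolactone replicate 2, at 474 CPM, lay just above vehicle replicate 3, at 469 CPM, so the groups overlapped by this pair alone. The means were 445 ± 35.5 and 533 ± 56.0 CPM (SD, n = 3 each; log2 fold change -0.26, SE 0.095, adjusted p = 0.176). Without both replicates 3, which stood apart in retinal and lens markers, the log2 fold change was -0.28 and passed the threshold (adjusted p = 0.0495, at the low end of a range over alternatives that reached 0.425). Epas1, the alpha subunit known from endothelium, had 562, 511 and 445 CPM with spironolactone and 553, 641 and 486 CPM with vehicle, with overlap (log2 fold change -0.15, SE 0.12, adjusted p = 0.499). Blood endothelial markers summed to 555, 483 and 425 CPM with spironolactone and 639, 751 and 559 CPM with vehicle, and their part in the Epas1 value was not tested. The common partner Arnt (0.00, SE 0.055) and Vhl (-0.06, SE 0.081) had log2 fold changes within their errors of 0. Their levels in all 6 libraries were 49.9 to 54.3 CPM for Arnt and 58.8 to 69.4 CPM for Vhl. Over the 7 regulators the median log2 fold change was 0.00, with 1 gene higher and 1 lower at an unadjusted p under 0.05 (14.3% each, against 12.2% and 10.4% of all genes).

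**Figure D2:**
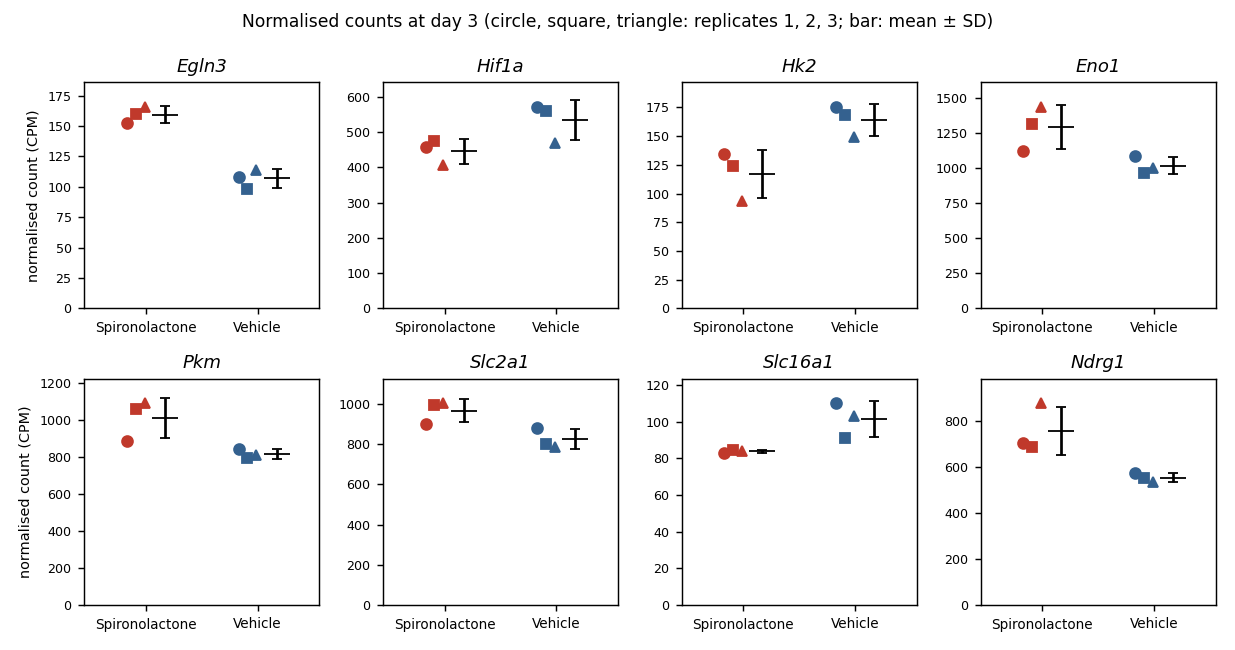
Scaled counts (y axis, CPM, from 0) of 8 genes in each day 3 library, spironolactone left and vehicle right; circle, square and triangle are replicates 1, 2 and 3, and the bar is the mean ± SD (n = 3). Egln3, Eno1, Pkm, Slc2a1 and Ndrg1 are higher and Hk2 and Slc16a1 lower in all 3 spironolactone libraries, while Hif1a overlaps at spironolactone replicate 2 and vehicle replicate 3.

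Of the 18 glycolytic enzyme genes, 17 were tested, 11 of them on the positive side, and the median log2 fold change was 0.22. At an unadjusted p under 0.05, 9 were higher (52.9%) and 1 lower (5.88%), against 12.2% and 10.4% of all genes. By library range 7 were higher (41.2%) and 2 lower (11.8%) without overlap in CPM, against 16% and 16.1% of all genes. On TPM, 3 of the 17 were higher and 2 lower without overlap, where the shares of all genes were 9.86% and 23.1%. The summed level of the 18 genes was 8279, 9570.0 and 9909 CPM in the spironolactone libraries, against 8199, 7636 and 7818 CPM in the vehicle libraries. Spironolactone replicate 1 exceeded vehicle replicate 1 only slightly on this scale, and in summed TPM it was lower (8929 against 9288). The median deviation of these enzymes from their mean was -0.03 in spironolactone replicate 1, 0.16 and 0.17 in replicates 2 and 3, and between -0.12 and -0.06 in the vehicle libraries, in log2 units. The epithelial markers had median deviations of 0.26, 0.26 and 0.24 with spironolactone, against -0.40, -0.29 and -0.09 with vehicle, while by summed CPM spironolactone replicate 1 was the lowest of its group in both lists.

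**Figure D3:**
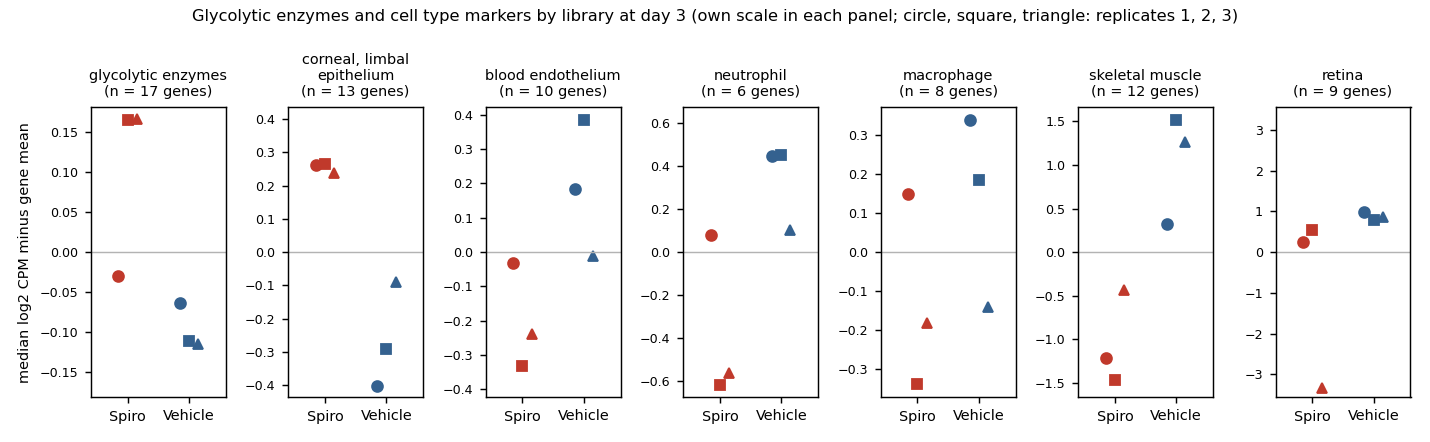
Median deviation of each list's genes from their own mean over 6 libraries (y axis, log2 CPM, own scale per panel) for glycolytic enzymes and 6 cell type marker lists; circle, square and triangle are replicates 1, 2 and 3, spironolactone left and vehicle right. Spironolactone replicate 1 lies at -0.03 for glycolytic enzymes and at 0.26 for epithelial markers, and spironolactone replicate 3 is low for retinal markers, at -3.33.

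Glucose is first trapped in the cell by hexokinase, and at this step both genes had lower means with spironolactone. Hk2, the inducible hexokinase and a known HIF target, had 134, 124 and 93.6 CPM in the spironolactone libraries, against 176, 168 and 149 CPM in the vehicle libraries. Every spironolactone library lay below every vehicle library, with replicate 3 the lowest in each group. The means were 117 ± 21.0 and 164 ± 13.8 CPM (SD, n = 3 each; log2 fold change -0.49, SE 0.14, adjusted p = 0.115). Without both replicates 3 the log2 fold change was -0.41 and passed the threshold (adjusted p = 0.0239), where the alternatives gave adjusted p from 0.0096 to 0.324. Hk1, the hexokinase present in most tissues, had 86.7, 86.9 and 69.6 CPM with spironolactone and 92.3, 96.1 and 84.9 CPM with vehicle, with overlap (log2 fold change -0.17, SE 0.098, adjusted p = 0.342). Hk2 thus took 40.6% ± 1.69 of the TPM of both hexokinases with spironolactone and 46.2% ± 1.18 with vehicle (SD, n = 3 each), without overlap (exact two-sided permutation p = 0.1, the smallest possible, 0.175 adjusted over 7 shares). Hk2 is also expressed in skeletal muscle, and the muscle markers were lower in the spironolactone libraries. Within that group, replicate 3 was the lowest in Hk2 but the highest in muscle markers (316 CPM), and the lowest in retinal markers (194 CPM). Within the vehicle group, replicate 1 was the highest in Hk2 and the lowest in muscle markers (556 CPM). The part of these markers in the Hk2 value was not tested.

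The next steps rearrange the sugar and split it. Gpi, the isomerase after hexokinase, had 458, 544 and 534 CPM with spironolactone and 430.3, 435 and 431 CPM with vehicle, with all spironolactone libraries above a narrow vehicle range (log2 fold change 0.24, SE 0.073, adjusted p = 0.121). The phosphofructokinase genes, which encode the committed step, had log2 fold changes of 0.14 for Pfkl, -0.04 for Pfkm and 0.15 for Pfkp, of which only Pfkp did not overlap. The share of Pfkp in the TPM of the 3 genes was 27.2% ± 1.28 with spironolactone and 26.2% ± 0.482 with vehicle (exact two-sided permutation p = 0.3). Pfkfb3, which makes the sugar bisphosphate that activates phosphofructokinase and is a known HIF target, had 57.5, 49.6 and 54.6 CPM with spironolactone and 85.1, 66.4 and 52.9 CPM with vehicle. The vehicle libraries spread widely and vehicle replicate 3 fell among the spironolactone libraries (log2 fold change -0.34, SE 0.17, adjusted p = 0.288). Its relative Pfkfb4 stayed near 1.53 to 2.46 CPM in all libraries, with a log2 fold change of 0.32 (SE 0.20). Aldoa, the main aldolase, had 1188, 1333 and 1335 CPM with spironolactone and 1124, 1075 and 1106 CPM with vehicle, without overlap (log2 fold change 0.22, SE 0.065, adjusted p = 0.115).

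Aldoc, the aldolase of neural tissue, had lower values and is given by library because 1 library decided its size, a choice made after its values were seen. It had 74.4, 90.9 and 33.6 CPM in the spironolactone libraries, against 109.8, 98.0 and 102 CPM in the vehicle libraries. Spironolactone replicate 3, the library low in retinal markers, was also by far the lowest in Aldoc. The log2 fold change was -0.64 (SE 0.35, adjusted p = 0.336), and without that library it was -0.32 (adjusted p = 0.138). Aldoc made up 4.32% ± 1.89 of the TPM of both aldolases with spironolactone and 7.54% ± 0.284 with vehicle (SD, n = 3 each; exact two-sided permutation p = 0.1, 0.175 adjusted over 7 shares).

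The lower part of glycolysis, from glyceraldehyde phosphate to lactate, held 6 of the 7 most abundant transcripts of the set, beside Aldoa, and each of these 6 (Gapdh, Eno1, Ldha, Pgk1, Pkm and Pgam1) had a positive fold change. Eno1, enolase, had 1124, 1318 and 1439.5 CPM in the spironolactone libraries, against 1087, 966 and 1005 CPM in the vehicle libraries. The means were 1294 ± 159 and 1019 ± 61.8 CPM (SD, n = 3 each; log2 fold change 0.34, SE 0.099, adjusted p = 0.114). Spironolactone replicate 1 was the lowest of its group and vehicle replicate 1 the highest of its own, and they differed by little. Pkm, the pyruvate kinase, had 889.5, 1058 and 1093 CPM with spironolactone and 846, 793 and 813 CPM with vehicle, means of 1014 ± 109 and 817 ± 27.0 CPM (SD, n = 3 each; log2 fold change 0.31, SE 0.086, adjusted p = 0.107). Ldha, which makes lactate, had 981, 1153 and 1223 CPM with spironolactone and 971, 904 and 919.6 CPM with vehicle (log2 fold change 0.26, SE 0.088, adjusted p = 0.148). The groups did not overlap in CPM, but on TPM spironolactone replicate 1 lay below vehicle replicate 1 for Ldha (1006 against 1050.3 TPM) and for Eno1 (1056 against 1077 TPM). Gapdh and Pgk1 had log2 fold changes of 0.24 and 0.31 with overlap, and the mutase Pgam1 had 0.24 without overlap, with adjusted p from 0.178 to 0.184 for the 3 genes. Gapdh, often used as a constant reference gene, had 1325, 1565 and 1644 CPM with spironolactone and 1332, 1243 and 1266 CPM with vehicle.

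Ldhb, the lactate dehydrogenase subunit that favours the reaction back to pyruvate, had 111, 105 and 88.2 CPM with spironolactone and 97.0, 103 and 106 CPM with vehicle, with full overlap (log2 fold change -0.01, SE 0.089, adjusted p = 0.962). Ldha made up 89.9% ± 2.00 of the TPM of both subunits with spironolactone and 88.2% ± 0.802 with vehicle (SD, n = 3 each; exact two-sided permutation p = 0.2, 0.28 adjusted over 7 shares). Spironolactone replicate 1, at 87.9%, fell inside the vehicle range for this share. Tpi1, the triose phosphate isomerase, was listed at 1, 3 and 3 counts in the spironolactone libraries and at 3, 2 and 1 counts in the vehicle libraries. It was too low to test, although glycolysis in all tissues passes through this enzyme, so its listed level is not read as expression here. RefSeq names 3 pseudogenes after Tpi1, 81 after Gapdh, 31 after Eno1, 30 after Ldha, 19 after Pkm, 13 after Pgam1, 9 after Aldoa and 8 after Pgk1. Of the copies so named, 1 of Gapdh has a row in the files, with at most 11 counts in a library. How reads that match both a gene and its copies were counted is not stated, so these values carry that uncertainty.

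**Figure D4:**
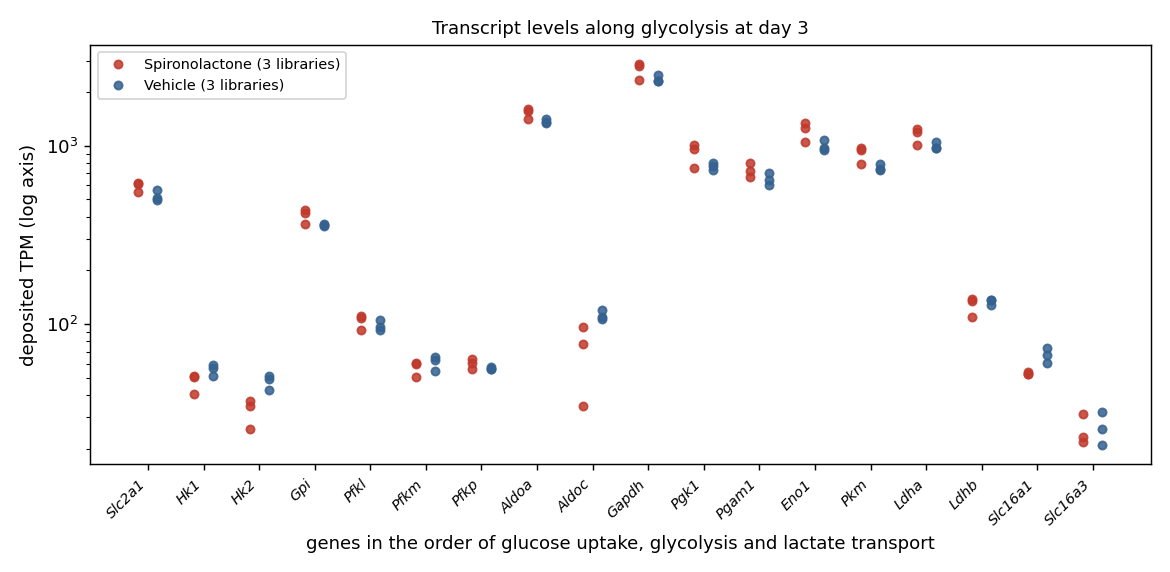
Deposited TPM (y axis, log scale) of 18 genes in the order of glucose uptake, glycolysis and lactate transport, with each of the 3 spironolactone libraries at the left of a gene's pair and each of the 3 vehicle libraries at the right. Gapdh and Aldoa are the highest, both hexokinases lie at or below 58.6 TPM, and 1 spironolactone library of Aldoc lies far below the other 5.

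On the TPM scale, which allows genes to be compared, Gapdh had the highest mean level over the 6 libraries (2525 TPM), followed by Aldoa (1452 TPM) and Eno1 (1109 TPM). Their ranges over libraries did not overlap in the order from Gapdh to Aldoa to Eno1. From Eno1 through Ldha (1074 TPM), Pgk1 (836 TPM), Pkm (826 TPM) and Pgam1 (690.4 TPM) to Slc2a1 (556 TPM), each gene overlapped its neighbour. Slc2a1 was above Gpi (383 TPM) in every library, and Ndrg1 (360.3 TPM) above Hif1a (206 TPM). The hexokinases were far lower, at 51.4 TPM for Hk1 and 40.1 TPM for Hk2, and the lowest tested members were Ankrd37 (4.65 TPM) and Pfkfb4 (2.12 TPM).

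Of the transporters, the carriers Slc2a1 for glucose and Slc16a1 for lactate had fold changes of opposite sign. Slc2a1, the glucose carrier GLUT1, had 900.0, 998 and 1006 CPM in the spironolactone libraries, against 881, 803 and 789 CPM in the vehicle libraries. The means were 968 ± 58.9 and 824 ± 49.7 CPM (SD, n = 3 each; log2 fold change 0.23, SE 0.071, adjusted p = 0.128). In CPM the groups were separated by a small gap between replicates 1, and on TPM replicate 1 had 547 TPM with spironolactone and 564 TPM with vehicle, so they overlapped. Slc16a1, the monocarboxylate carrier MCT1, had 82.9, 84.5 and 84.0 CPM with spironolactone and 110.2, 91.1 and 103 CPM with vehicle. The spironolactone libraries were almost equal and all lay below the vehicle libraries, with means of 83.8 ± 0.828 and 101 ± 9.62 CPM (SD, n = 3 each; log2 fold change -0.28, SE 0.074, adjusted p = 0.102). Slc16a3, the lactate exporter MCT4 and a known HIF target, had 30.5, 28.03 and 41.2 CPM with spironolactone and 39.8, 32.2 and 26.4 CPM with vehicle, with full overlap (log2 fold change 0.02, SE 0.20, adjusted p = 0.967). Its sign depended on single libraries, at -0.17 without spironolactone replicate 3 and -0.10 without vehicle replicate 3. Slc16a3 took 32.3% ± 4.48 of the TPM of both lactate carriers with spironolactone and 28.1% ± 3.81 with vehicle (SD, n = 3 each; exact two-sided permutation p = 0.4). Slc2a3, the glucose carrier known from neurons and white cells, was at 2, 3 and 2 counts with spironolactone and at 1 count in each vehicle library, too few to test.

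Among the 9 HIF target genes outside glycolysis, 3 were higher (33.3%) and 0 lower at an unadjusted p under 0.05, against 12.2% and 10.4% of all genes, and the median log2 fold change was 0.04. Ndrg1, a stress and differentiation gene of epithelia, had 704, 686 and 877 CPM in the spironolactone libraries, against 573, 549.6 and 535 CPM in the vehicle libraries. Replicate 3 was the highest spironolactone library, and no vehicle library reached the lowest of them. The means were 755 ± 105 and 553 ± 19.2 CPM (SD, n = 3 each), a 1.37-fold ratio (log2 fold change 0.45, SE 0.10, adjusted p = 0.0768). Without both replicates 3 the log2 fold change was 0.31 and passed the threshold (adjusted p = 0.0422, within a range over alternatives of 0.00106 to 0.268).

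Bnip3l, a receptor for the removal of mitochondria, had 267, 265 and 259.9 CPM with spironolactone and 227, 237 and 229 CPM with vehicle. Both groups were tight and did not overlap, with means of 264 ± 3.85 and 231 ± 5.21 CPM (SD, n = 3 each; log2 fold change 0.20, SE 0.046, adjusted p = 0.0819). Its relative Bnip3 had 47.6, 49.3 and 50.5 CPM with spironolactone and 52.1, 49.8 and 41.7 CPM with vehicle, with overlap (log2 fold change 0.04, SE 0.089). Pdk1, a kinase that inhibits pyruvate dehydrogenase, had 54.4, 66.3 and 71.4 CPM with spironolactone and 54.8, 47.4 and 54.4 CPM with vehicle. Only spironolactone replicate 1 fell inside the vehicle range (log2 fold change 0.29, SE 0.11, adjusted p = 0.184).

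Adm, the vasodilator peptide adrenomedullin, had 11.2, 9.75 and 8.20 CPM with spironolactone and 13.4, 11.9 and 9.36 CPM with vehicle, with overlap (log2 fold change -0.25, SE 0.17, adjusted p = 0.404). P4ha1, a subunit of the collagen prolyl hydroxylase, had 98.8, 80.0 and 101 CPM with spironolactone and 115, 106 and 92.5 CPM with vehicle (log2 fold change -0.17, SE 0.11, adjusted p = 0.41), again with overlap. The other collagen hydroxylase subunit gene P4ha2, the mTOR inhibitor gene Ddit4 and the low-level Ankrd37 had log2 fold changes of -0.09, -0.01 and 0.35, all with overlap and with adjusted p from 0.517 upward.

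**Figure D5:**
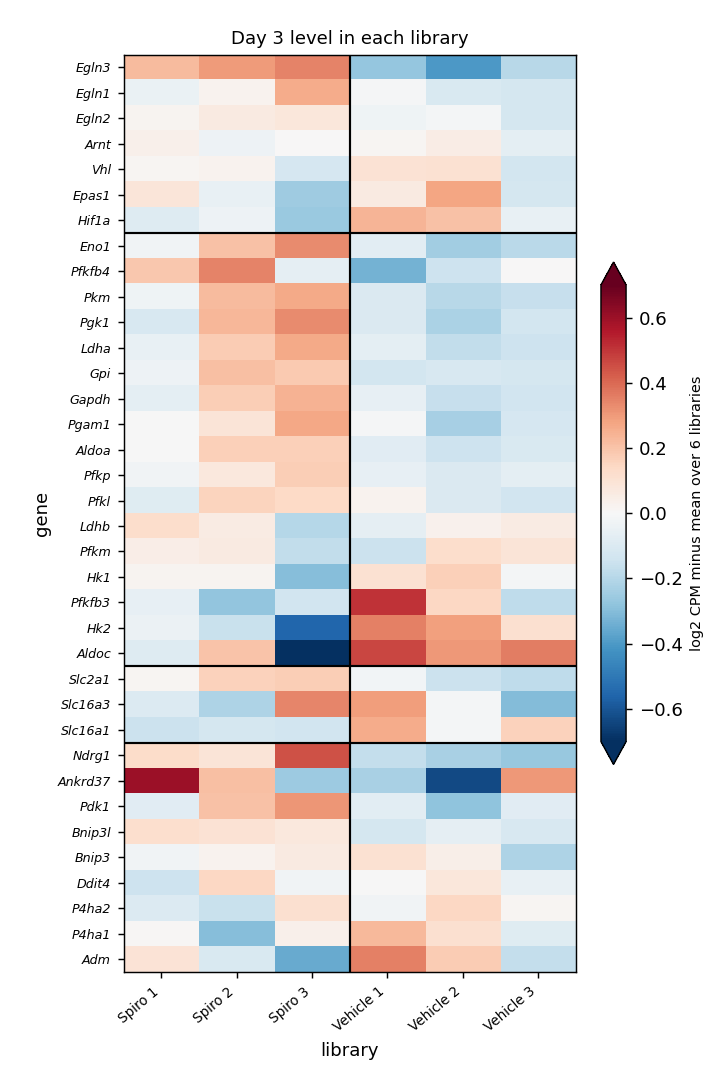
Level of each tested gene in each day 3 library as log2 CPM minus the gene's mean over the 6 libraries (colour, red above and blue below the mean, scale ending at 0.7), spironolactone left and vehicle right, by role. Spironolactone replicate 3 holds the highest value of 15 of the 36 genes and the lowest of 8, and vehicle replicate 3 holds the highest of 0.

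The members varied among themselves by library as well as by treatment. Spironolactone replicate 3 held the highest of the 6 values in 15 of the 36 tested members and the lowest in 8, while spironolactone replicate 1 held the highest in 3 and the lowest in 2. Vehicle replicate 2 held the lowest value in 11 members and the highest in 6. For glycolytic enzymes alone, spironolactone replicate 3 was highest in 8 and lowest in 5 of 17, and the lowest were Hk1, Hk2, Pfkm, Aldoc and Ldhb. These genes thus had their extreme in the same library as the abundant enzymes, in the opposite direction. The genes outside the set whose log2 CPM followed Egln3 most closely over the 6 libraries were Usp3, Lgals3, Col17a1, Lima1 and Vsig10l, and those closest to Hk2 were Gldc, Fam171a1, Asah1, Sned1 and Tram1l1. Pearson's r was 0.996 or higher for the first set and 0.993 or higher for the other. These points share the treatment groups and the libraries, and with 14762 genes to choose from the values are a description only. Col17a1, the hemidesmosomal collagen of basal epithelium, is also on the epithelial marker list.

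The rest of the pathway, taken from lists of other genes with known roles, held HIF targets on both sides. Of 26 other HIF target genes tested, 5 were higher and 5 lower at an unadjusted p under 0.05 (19.2% each, against 12.2% and 10.4% of all genes; median log2 fold change 0.04). The groups did not overlap in 4 on each side (15.4% each), near the 16% and 16.1% of all genes. Car12, a carbonic anhydrase, had 175, 206 and 219 CPM with spironolactone and 128, 124 and 139 CPM with vehicle (log2 fold change 0.62, adjusted p = 0.0649), and Ndufa4l2, a mitochondrial HIF target, had 23.3, 35.3 and 35.0 CPM with spironolactone and 17.4, 19.8 and 18.6 CPM with vehicle (log2 fold change 0.75, adjusted p = 0.0769). In both genes the groups did not overlap. Of 13 other regulators of HIF, 0 were past an unadjusted p of 0.05 in either direction, against 12.2% of all genes higher and 10.4% lower. Their log2 fold changes included -0.14 and 0.15 for Eloc and Elob, partners of Vhl in its ligase, and -0.10 for the coactivator gene Crebbp.

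Among 15 other glycolysis genes tested, 1 was higher (6.67%) and 2 lower (13.3%) at an unadjusted p under 0.05, shares near the 12.2% and 10.4% of all genes, with a median of -0.07. The 2 lower genes encode enzymes of muscle. Eno3, the muscle enolase, had 8.34, 9.30 and 14.1 CPM with spironolactone and 21.0, 43.2 and 40.3 CPM with vehicle, where Eno1 had higher values (log2 fold change -1.72, SE 0.34, adjusted p = 0.0747). Pgam2, the muscle phosphoglycerate mutase, had 1.41, 1.49 and 4.45 CPM with spironolactone and 5.89, 12.6 and 9.65 CPM with vehicle (log2 fold change -1.94, SE 0.52, adjusted p = 0.109). The skeletal muscle markers had lower levels in the same libraries, with a median log2 fold change of -2.10, and the part of those markers was not tested. Pgm2, a phosphoglucomutase, lay higher without overlap (log2 fold change 0.36, SE 0.077, adjusted p = 0.0747).

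Of 12 genes of glycogen and the pentose phosphate branch, 5 were higher (41.7%) and 1 lower (8.33%) at an unadjusted p under 0.05, against 12.2% and 10.4% of all genes (median 0.15). Pygl, the liver-type glycogen phosphorylase, had 258, 258 and 229.6 CPM with spironolactone and 156, 188 and 171 CPM with vehicle, without overlap (log2 fold change 0.53, SE 0.083, adjusted p = 0.0649). Pygm, its muscle counterpart, had 28.1, 35.2 and 38.5 CPM with spironolactone and 46.4, 75.8 and 64.2 CPM with vehicle (log2 fold change -0.87, SE 0.20, adjusted p = 0.0844), so the muscle form again lay on the other side. Taldo1, the transaldolase of the pentose phosphate branch, lay higher without overlap (log2 fold change 0.30, SE 0.077, adjusted p = 0.0961). Of 13 genes for the transport of pyruvate into mitochondria and its use there, 1 was higher and 1 lower at an unadjusted p under 0.05. These are 7.69% each, against 12.2% and 10.4% of all genes, with a median of 0.06. They were Pcx, the pyruvate carboxylase, at 0.44 and Pdhx, a subunit of the pyruvate dehydrogenase complex, at -0.19 on the log2 scale. The pyruvate dehydrogenase kinase gene Pdk3 had 0.16.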

How the data were processed

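Total RNA was sequenced from peripheral cornea and limboscleral tissue. For upstream work, the submitters' processing notes list the aligner STAR 2.5.3a and the quantifier RSEM 1.2.28, beside fastp, FastQC, Picard, DRAGEN, edgeR 3.28.0 and DESeq2 1.26.0; the rat builds listed are Rnor_6.0 and rn6. At day 3 the authors' files hold expected counts and TPM per gene, with effective lengths, per the file headers. The deposited expected counts were rounded to whole numbers, since 122 to 140 values per library were not whole. A row naming no gene (0.12% to 0.181% of counts) was left out. Use of strand in counting is not given in the sources used; overlapping and antisense genes may share reads.

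Spironolactone was compared with vehicle at day 3, by groups taken from the sample titles (3 libraries each, 18.2 to 25.3 M counts). Genes were kept by edgeR's filter with a minimum count of 10. EdgeR 4.0.16 in R 4.3.3 gave TMM scaling, robust quasi-likelihood tests and Benjamini-Hochberg adjustment over 14762 genes at 0.05. Each SE was derived from the fold change and its F statistic. Shares within gene families came from the deposited TPM values, with exact two-sided permutation tests. Alternatives were DESeq2 1.42.0, limma-voom (limma 3.58.1), effective-length offsets, RLE size factors, a replicate block, a 1 CPM filter in 3 libraries, no filter, each library left out, and both replicates 3 left out. The tests were also run on simulated independent counts with planted changes. That run checked the code and does not measure how the tests perform on these libraries. Libraries within a group differed by more than sampling noise (chi-square per gene 7.91 to 23.7).

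The members, lists and tests were chosen with earlier results of these data known. Values per library are given for 12 fixed members and for up to 5 members per role with the smallest p, with up to 3 genes of each other pathway list; other genes given by library were chosen after their values were seen. A gene that this rule names is not reported here. Promoter sequences are from RefSeq.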

Additional observations from a re-analysis of the deposited data

How the results depend on the processing

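Single libraries and the choice of tool decided how many genes passed at day 3. DESeq2 called 1344 genes and 11 members, edgeR without the filter on low counts called 148 genes and 1 member (Egln3), and edgeR without both replicates 3 called 1040 genes and 4 members. Leaving out 1 library at a time gave 0 to 781 genes, 0 to 1 members, and 10 to 17 members at an unadjusted p under 0.05 (13.8% to 23.5% of all genes), against 17 with all libraries (22.6% of all genes). The median log2 fold change of HIF target genes was 0.04 with all libraries, -0.024 to 0.11 with 1 left out and -0.021 without both replicates 3, where the transporter median was -0.26. The sign of 6 members near 0 changed: with 1 library left out, Arnt ran from -0.012 to 0.042, Ddit4 from -0.091 to 0.054, Pfkm from -0.118 to 0.029, Ldhb from -0.074 to 0.082, Slc16a3 from -0.167 to 0.189 and Bnip3 from -0.037 to 0.11. Without both replicates 3, the values were -0.025 for Arnt, 0.067 for Pfkm, 0.11 for Ldhb, -0.30 for Slc16a3 and -0.069 for Bnip3. The cause was not tested. The other members kept their sign under every alternative run. Whether replicate numbers pair the libraries could not be decided from deviations around means of only 3 libraries. Correlations of these deviations were 0.0898, -0.0845 and 0.0486 for numbers 1, 2 and 3. The fit with a replicate block called 0 genes and 0 members, with 17 members at an unadjusted p under 0.05 (21% of all genes). On the deposited TPM scale, 3 members near 0 (Arnt, Slc16a3 and Bnip3) had the other sign of their mean difference, and the median log2 ratio of all genes was -0.07. With 3 libraries per group a two-sided permutation test cannot give a p below 0.1. Tpi1 and Slc2a3, at 1 to 3 counts, could not be tested. The TPM comparison and alternatives for the named pathway genes outside the set were added after the data were seen.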
